A study of Xenopus laevis with 4 samples.

Results

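The rows miR-449, miR-34b and miR-34a are a family of small regulatory RNAs in embryonic frog epidermis. They were picked by name, as the rows listed as xtr-miR-449, xtr-miR-34b and xtr-miR-34a, and they are 3 of the 98 miRNAs in the deposited table. The RNA came from epidermal explants of Xenopus laevis embryos, dissected at the gastrula (stage 11.5, non ciliated) or the tailbud (stage 26, ciliated) and frozen. No genotype, drug or other agent is given for any group. Each stage has 2 libraries, named a and b. The series calls them technical replicates. The RNA of a stage was pooled from 50 explants. The libraries therefore show the spread between libraries and not between pools of embryos. The source name of library b reads stage 11.6 in place of 11.5, and 27 in place of 26, and stages here follow the developmental stage label. Ciliation and developmental age change together between the stages and cannot be told apart. In RNA from whole explants, fewer cells of a type and less RNA per cell cannot be told apart either.

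A mature miRNA pairs with target mRNAs mainly through its seed, the bases near its 5′ end, and lowers their translation or stability. Members of the miR-34 and miR-449 family share a seed and are known from multiciliated cells, the cells that beat mucus or fluid over airway and embryonic frog skin, where they act on the Notch pathway ligand Delta-like 1 and on CP110, a protein that caps centrioles before cilia grow. In mammals the miR-449 cluster lies in an intron of CDC20B, near MCIDAS and CCNO, both known for a part in forming multiciliated cells. In the RefSeq annotation of X. laevis (assembly Xenopus_laevis_v10.1) mcidas.L likewise lies directly between ccno.L and cdc20b.L, and its other copy, mcidas.S, between ccno.S and gpx8.S. The positions of the 3 frog miRNAs were not used here. In mammals miR-34b is made from the same transcript as miR-34c, and miR-34a from its own gene.

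The mature sequences, as deposited and written with T for U, are shown because the shared seed is what makes these rows a family. Capitals mark 2 stretches of 7 bases found in all 3 of them, the first of which is followed by a T in each. The first of these is the seed, bases 2 to 8, of miR-449 and miR-34a, and lies 1 base further in in miR-34b.
xtr-miR-449: aGGCAGTGtaatgTTAGCTGgt
xtr-miR-34b: caGGCAGTGtagTTAGCTGattg
xtr-miR-34a: tGGCAGTGtcTTAGCTGgttgtt

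The first stretch, GGCAGTG, sits at bases 2 to 8 of miR-449 and miR-34a. In miR-34b it sits at bases 3 to 9, because an extra C stands at the 5′ end, so that its own bases 2 to 8 read AGGCAGT. The second stretch, TTAGCTG, follows after 5 bases in miR-449, 3 in miR-34b and 2 in miR-34a. In the table, 3 of 98 rows hold GGCAGTG and 3 of 98 hold TTAGCTG, on the strand as listed, and in each case these are the same 3 rows. The closest pair is miR-449 and miR-34b, which share the 10-base stretch AGGCAGTGTA and lie 6 edits apart. miR-34b and miR-34a lie 7 edits apart and miR-449 and miR-34a 8. The nearest rows outside the family were miR-196a, 7 edits from miR-449, miR-196b, 9 from miR-34b, and let-7a, 9 from miR-34a. Names in the table are those of X. tropicalis, and the counting does not separate the paired L and S gene copies of X. laevis.

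Values are deposited as CPM, the reads of a miRNA per 1000000 reads assigned to the listed miRNAs of a library. Each value is a whole multiple of the smallest value above 0 in its column, which is taken as 1 read. On that reading stage 11.5 had 22668 reads in library a and 30406 in library b, and stage 26 had 46892 and 41878. These totals are of the listed miRNAs only. miR-427, which in early embryos helps to remove the mRNAs laid down in the egg, took 87.0% and 81.7% of the reads at stage 11.5, and 7.57% and 6.95% at stage 26. It left 2937 and 5574 reads for all other rows at stage 11.5, against 43344 and 38966 at stage 26. Levels are therefore given both with miR-427 in the total and without it. Intervals are exact (Clopper-Pearson for shares) 95% intervals and cover counting error only. PCR copies of 1 molecule could not be told from separate molecules, as no molecular identifiers are mentioned.

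The family as a whole went from a small part of all miRNA reads to about as much as all other rows besides miR-427 together. The 3 rows held 4.02% (interval 3.77% to 4.29%) of library a and 4.87% (4.63% to 5.12%) of library b at stage 11.5. At stage 26 they held 46.0% (45.5% to 46.4%) and 47.0% (46.5% to 47.4%). Both ciliated libraries lay far above both non ciliated ones. Across the table, 73.1% of the 52 tested miRNAs were also higher at stage 26 without overlap in deposited CPM. In the share of the 3 rows, libraries of the same stage differed 1.21-fold (b over a, interval 1.11 to 1.32) at stage 11.5 and 1.02-fold (1.002 to 1.04) at stage 26. With 2 libraries a stage, an exact permutation test cannot go below p = 0.33, and no test was made on the sum. The 94 rows other than the family and miR-427 took 8.93% and 13.5% at stage 11.5 and 46.5% and 46.1% at stage 26, so that they too gained share.

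The size of that gain depends on whether miR-427 counts in the total. With the miR-427 row out of the totals, the 3 rows held 31.1% (29.4% to 32.8%) of library a and 26.6% (25.4% to 27.8%) of library b at stage 11.5. At stage 26 the corresponding shares were 49.7% (49.3% to 50.2%) and 50.5% (49.98% to 50.97%). The stages still did not overlap (39.2% of tested rows were higher in this way), and the ratio of pooled shares was 1.78 (interval 1.71 to 1.86), against 10.3 (9.88 to 10.7) with miR-427 in the total. The order of the stage 11.5 libraries turned between these denominators: library b was higher with miR-427 in the total, and library a without it. Without miR-427 they differed 1.17-fold (a over b, interval 1.07 to 1.27). The interval of the pooled ratio leaves out that spread.

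**Figure D1:**
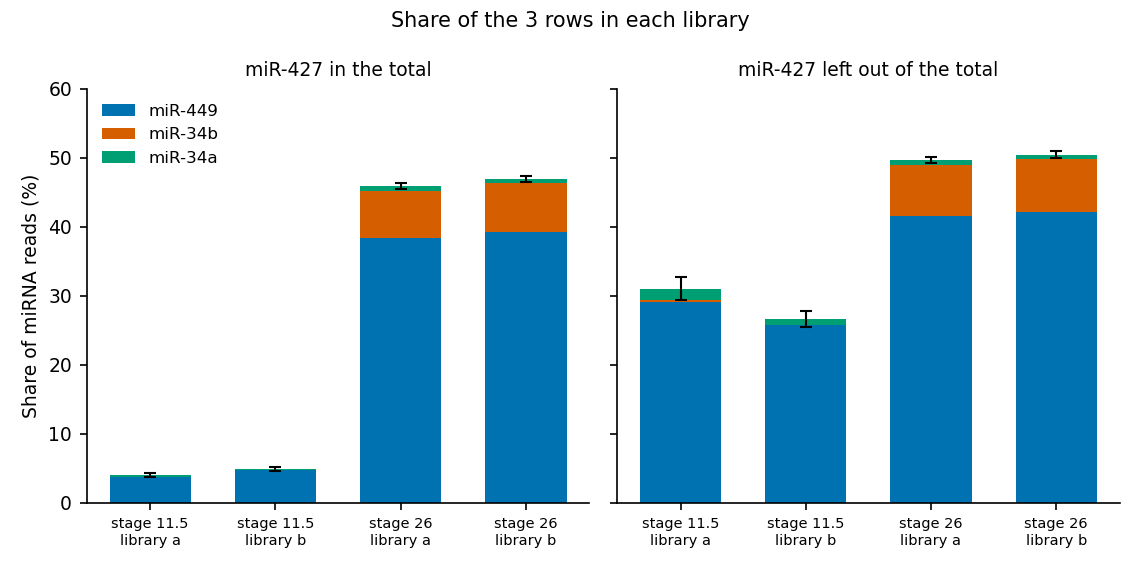
Share of miRNA reads (%) taken by miR-449, miR-34b and miR-34a in each library, stacked, with miR-427 in the total (left) and left out of it (right). Bars show the exact 95% counting interval of the sum. The sum goes from 4.02% and 4.87% to 46.0% and 47.0% on the left, and from 31.1% and 26.6% to 49.7% and 50.5% on the right.

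By reads, miR-449 was abundant before cilia appeared and the most abundant miRNA after. At stage 11.5 it stood at 37674 CPM in library a and 47129 CPM in library b, from 854 and 1433 reads. At stage 26 it stood at 384437 and 392449 CPM, from 18027 and 16435 reads. It was second only to miR-427 in both stage 11.5 libraries and first in both stage 26 libraries. Among the rows other than miR-427 it was first in all 4 libraries. At stage 11.5 it already held 29.1% (27.4% to 30.8%) and 25.7% (24.6% to 26.9%) of the reads outside miR-427, which became 41.6% (41.1% to 42.1%) and 42.2% (41.7% to 42.7%). The next row below it, miR-17-5p at stage 11.5, stood at 17602 and 17168 CPM, 2.44-fold lower in the mean and outside the spread of miR-449. At stage 26 the next row was miR-427 at 75663 and 69535 CPM, 5.35-fold lower in the mean and again with no overlap.

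The mean of miR-449 went from 42402 ± 6685 to 388443 ± 5666 CPM (SD, n = 2), and from 83891 ± 7516 to 195532 ± 5605 CPM (SD, n = 2) after scaling by the trimmed mean of M values (TMM). TMM assumes that most rows with reads in both compared libraries are level between them. Whether that held here was not tested. After this scaling 31 of 52 tested rows were still called changed (limma, adjusted p under 0.05). Some of these, such as miR-301, had no reads at 1 stage, and TMM leaves such rows out when it compares the stages. The median tested row stood at log2 0.47 after this scaling. The stages overlapped on neither scale. Across the table, 73.1% of the 52 tested miRNAs were higher without overlap in deposited CPM and 46.2% after TMM scaling. The fold change after scaling was 2.33 (limma 95% interval 1.91 to 2.85, log2 1.22, SE 0.108, limma adjusted p = 0.000746). Without library a of stage 26 the call was lost (log2 1.24, limma adjusted p = 0.0809), as it was without library b (log2 1.18, limma adjusted p = 0.0868). Over 15 other settings, the crossed pairing of libraries aside, the adjusted p ran from 1.15e-07 to 0.0868 (limma).

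By reads, miR-34b was rare at the non ciliated stage and among the 3 most abundant miRNAs at the ciliated one. It had 9 reads in library a and 3 reads in library b of stage 11.5, or 397 and 98.7 CPM. At stage 26 it had 3180 and 2972 reads, or 67815 and 70968 CPM. Its rank went from 35 in library a and 42 in library b, there level with 1 other row, to 3 and 2. At stage 11.5 its mean of 248 ± 211 CPM (SD, n = 2) lay between miR-222 at 302.4 ± 9.06 and miR-99 at 214.6 ± 70.9 (SD, n = 2), and its libraries spread over both neighbours. At stage 26 its mean of 69392 ± 2229 CPM (SD, n = 2) overlapped that of miR-427 above it (72599 ± 4333), and lay just above miR-17-5p (64476 ± 4361). The library values of miR-34b and miR-17-5p did not overlap, but only narrowly. In library a the miR-34b interval of 6.56% to 7.01% included the miR-17-5p share of 6.76%.

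The 12 reads of miR-34b at stage 11.5, and the gap between its 2 libraries there, limit the precision of its change. The ratio of pooled shares was 307 (interval 175 to 594) with miR-427 in the total and 53.0 (30.3 to 102.6) without it. With miR-427 in the total the 2 stage 11.5 libraries differed 4.02-fold (a over b, interval 1.004 to 23.1), which lies below the interval of the stage ratio. Without it they differed 5.69-fold (1.42 to 32.7), and that interval reaches into the one of the stage ratio. Both intervals of the difference between libraries lie above 1. The intervals of the pooled ratios cover counting error only and leave out that spread. After TMM scaling the fitted log2 fold change on log2(CPM + 50) was 6.26 (SE 0.719, limma adjusted p = 0.00168), or 76.7-fold with a limma 95% interval of 20.4 to 288. Leaving out library a of stage 11.5 gave 7.31, and leaving out library b gave 5.35. The call was lost without library a (limma adjusted p = 0.143) or library b (limma adjusted p = 0.117) of stage 26. Over 16 other settings, the crossed pairing of libraries aside, the adjusted p ran from 1.02e-05 to 0.143 (limma). By fitted fold change it ranked 1 of 52 tested rows after TMM scaling and in deposited CPM, and 2 of 51 with miR-427 out of the totals, while miR-449 ranked 19, 15 and 19. These ranks hold for a pseudocount of 50 CPM. With 10 CPM miR-34b ranked 2, behind miR-218. Entry of miR-34b to the test needed its stage 26 values, as set out below, which limits its call and its rank.

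miR-34a rose in CPM by somewhat less than the median tested miRNA (log2 1.89 against 2.27). It was not called changed by limma once libraries were scaled. Its libraries a and b held 49 and 46 reads at stage 11.5, or 2162 and 1513 CPM. At stage 26 they held 352 and 262 reads, or 7507 and 6256 CPM. Its rank was 14 of 53 rows above 0 in library a of stage 11.5 and 20 of 52 in library b, there level with 1 other row. At stage 26 it was 18 of 87 and 17 of 83. Its neighbours overlapped with it at both stages: let-7b (1942 ± 560 CPM) and miR-155 (1798 ± 264) around its 1837 ± 459 CPM at stage 11.5, and miR-93a (8947 ± 4447) and miR-30d (6025 ± 529) around its 6881 ± 884 CPM at stage 26 (SD, n = 2).

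In deposited CPM miR-34a was higher at stage 26 (log2 fold change 1.89, SE 0.432, limma adjusted p = 0.00748), as were 71.2% of the tested rows. After TMM scaling it stood at 4508 and 2864 at stage 11.5 and 3741 and 3180 at stage 26, so that the stage 26 values lay inside the stage 11.5 range. The scaled fold change was 0.960 with a limma 95% interval of 0.448 to 2.06 (log2 -0.06, SE 0.414, limma adjusted p = 0.908). That interval includes a halving and a doubling, so equal levels are not shown. The sign of the log2 value turned without library a of stage 11.5 (0.30), and was -0.36 without library b, with neither past the threshold.

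**Figure D2:**
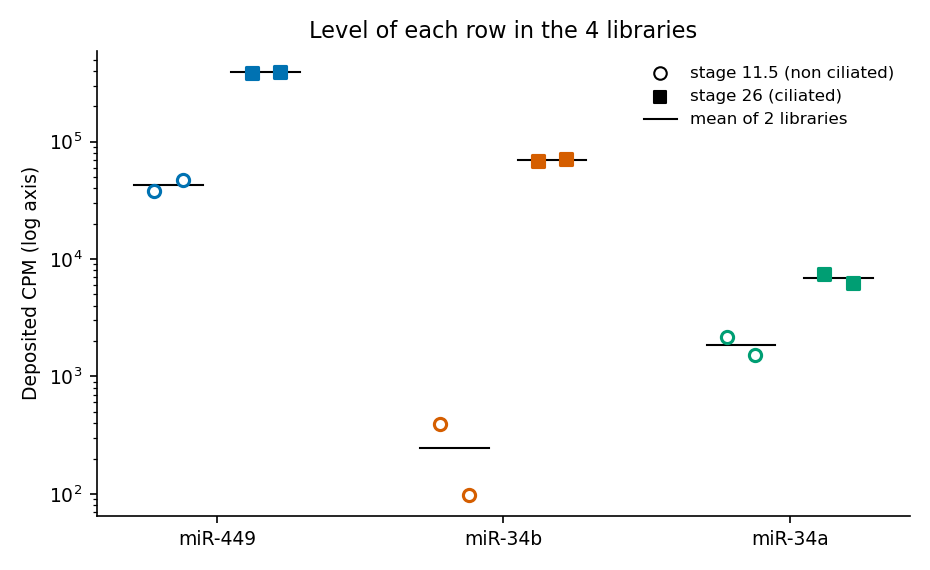
Deposited CPM (log axis) of miR-449, miR-34b and miR-34a in each library, open circles for stage 11.5 and filled squares for stage 26, with a line at the mean of 2 libraries. The mean goes from 42402 to 388443 CPM for miR-449, from 248 to 69392 CPM for miR-34b and from 1837 to 6881 CPM for miR-34a, and the widest gap between libraries is that of miR-34b at stage 11.5, at 397 and 98.7 CPM.

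After TMM scaling 2 of the 3 members were called higher, miR-449 and miR-34b, and none lower, where 38.5% of 52 tested miRNAs were called higher and 21.2% lower (limma, adjusted p under 0.05). Rows could enter the test through stage 26 alone, as miR-301 and miR-215 did from 0 CPM at stage 11.5. Entry of miR-34b also needed stage 26, because its library b of stage 11.5, at 98.7 CPM, lay under the cut of 276.7 CPM. Its call and its rank by fold change carry that limit. In deposited CPM, where the cut is set, rows that enter through stage 26 alone cannot be called lower. After scaling they could be. On each scale they can count in the background shares called higher. Other rows entered through stage 11.5 alone, as let-7i did with a mean of 0 CPM at stage 26, and can count in the shares called lower. In deposited CPM all 3 members were higher, against a background of 71.2% higher and 11.5% lower. With miR-427 out of the totals 2 of 3 were again higher, with 27.5% of 51 tested rows called higher and 27.5% lower. There the log2 fold change was 0.62 for miR-449 (SE 0.102, limma adjusted p = 0.00821). For miR-34b it was 5.79 (SE 0.880, limma adjusted p = 0.00695). miR-34a had -0.66 (SE 0.489, limma adjusted p = 0.292). Its stage 26 values of 8121 and 6724 per 1000000 such reads still lay below those of stage 11.5, at 16684 and 8253. That was the case for 43.1% of rows. The ratio of pooled shares of miR-34a was 0.668 (interval 0.538 to 0.839, counting error only), against 3.86 (3.11 to 4.85) with miR-427 in the total.

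The scalings moved the stages against each other. TMM took 1.98 (log2) off stage 26 against stage 11.5, and leaving out miR-427 took 2.59. The median log2 fold change of all tested rows was 2.27 in deposited CPM, 0.47 after TMM scaling and -0.12 with miR-427 out of the totals. The median of the 3 members, which is miR-449 in each case, was 3.20, 1.22 and 0.62. Read against the median of all tested rows, miR-449 lay 0.94, 0.76 and 0.74 above it. On the same reading miR-34b lay 5.81, 5.79 and 5.91 above it, and miR-34a was placed at -0.37, -0.53 and -0.54. Each scaling moves all rows alike, so these distances can differ only through the pseudocount and the rows tested, and their closeness across scales is no sign of stability.

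**Figure D3:**
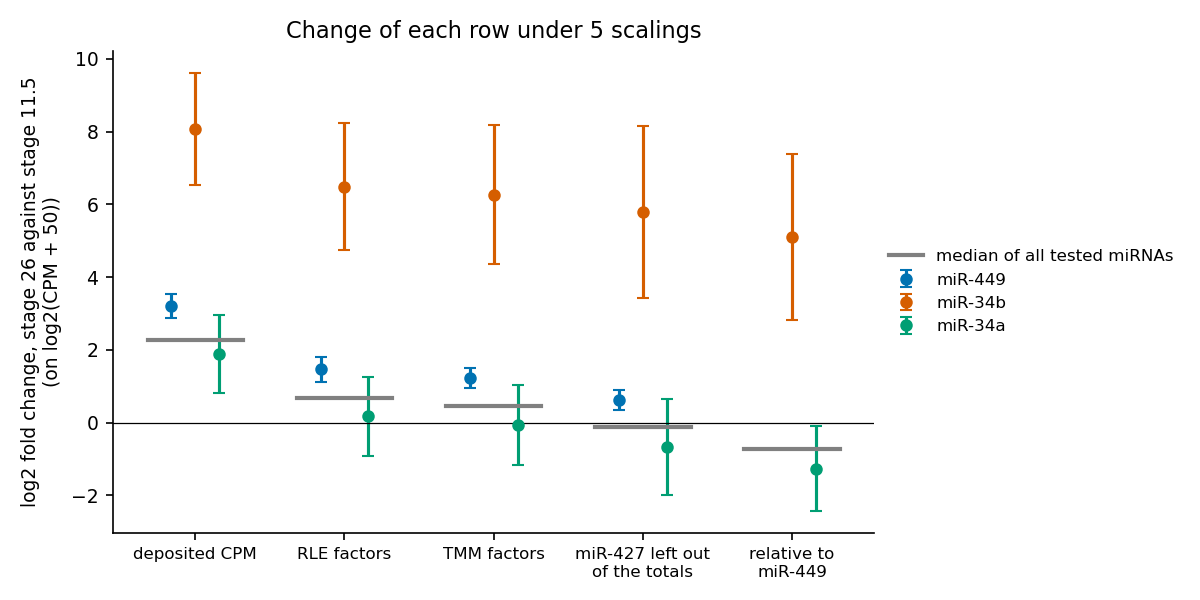
Fitted log2 fold change of each member, stage 26 against stage 11.5, under 5 scalings, with limma 95% intervals and a grey line at the median of all tested miRNAs. The median falls from 2.27 in deposited CPM to 0.47 with TMM factors and -0.12 with miR-427 left out of the totals, and the members move with it, since each scaling shifts all rows alike.

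The make-up of the family changed as well, and a share within the family does not depend on scaling between libraries. miR-449 made up 93.6% (91.9% to 95.1%) and 96.7% (95.7% to 97.5%) of the family's reads in the stage 11.5 libraries a and b. At stage 26 it made up 83.6% (83.1% to 84.1%) in library a and 83.6% (83.0% to 84.1%) in library b. It was thus the main member by reads throughout, with a smaller part at the ciliated stage.

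miR-34b took 0.987% (0.452% to 1.87%) and 0.202% (0.0418% to 0.590%) of the family at stage 11.5. At stage 26 its part was 14.8% (14.3% to 15.2%) and 15.1% (14.6% to 15.6%). miR-34a went the other way, from 5.37% (4.001% to 7.04%) and 3.10% (2.28% to 4.12%) to 1.63% (1.47% to 1.81%) and 1.33% (1.18% to 1.502%). The stages did not overlap for any of the 3 rows, but their shares sum to 100% and so are not separate results. Lack of overlap was also common among all tested rows, at 39.2% higher and 43.1% lower with miR-427 out of the totals. miR-34b and miR-34a changed places in the order. In stage means, miR-449 went from 95.2% ± 2.16 to 83.6% ± 0.0419, miR-34b from 0.595% ± 0.555 to 14.9% ± 0.254 and miR-34a from 4.24% ± 1.60 to 1.48% ± 0.213 (SD, n = 2). Libraries of stage 26 lay closer together than those of stage 11.5 for every member.

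**Figure D4:**
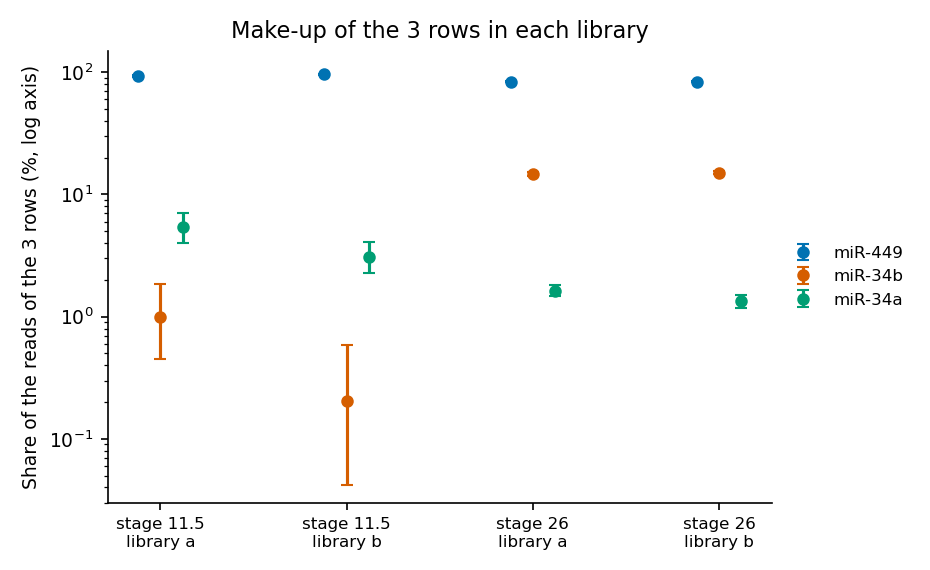
Share (%, log axis) of miR-449, miR-34b and miR-34a in the summed reads of the 3 rows, per library, with exact 95% counting intervals. miR-34b lies below miR-34a in both stage 11.5 libraries (0.987% and 0.202% against 5.37% and 3.10%) and above it in both stage 26 libraries (14.8% and 15.1% against 1.63% and 1.33%).

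Ratios of the rows to each other show the same measurements on another scale, as reads against reads of molecules 22 or 23 bases long. How evenly molecules of different sequence became reads was not tested. For every read of miR-34b there were 94.9 (interval 49.8 to 208.2) reads of miR-449 in library a of stage 11.5 and 478 (163 to 2319) in library b. At stage 26 there were 5.67 (5.46 to 5.89) and 5.53 (5.32 to 5.75). For every read of miR-34a there were 17.4 (13.1 to 23.7) and 31.2 (23.2 to 42.7) reads of miR-449 at stage 11.5. At stage 26 there were 51.2 (46.1 to 57.1) and 62.7 (55.5 to 71.1). The intervals of the 2 stages do not overlap for either ratio, but they cover counting error only. In the fit relative to miR-449, given next, 23.5% of tested rows were called higher and 37.3% lower, and miR-34a missed the threshold.

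The difference between members was tested by setting every library to the same miR-449 level and refitting all rows. On that scale 23.5% of 51 tested rows were higher and 37.3% lower. miR-34b rose relative to miR-449, by 5.10 on the log2 scale (SE 0.811, limma adjusted p = 0.00757), or 34.4-fold with a 95% interval of 7.09 to 166. miR-34a had a log2 change relative to miR-449 of -1.26 (SE 0.414), with a limma 95% interval of -2.43 to -0.10 and a limma adjusted p = 0.0608, which missed the threshold.

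The rows whose pattern over the 4 libraries was most like that of each member were taken by the smallest root mean square difference of centred, TMM scaled log2 values, among 51 other tested rows. For miR-449 these were miR-181b (0.17), miR-429 (0.21), an epithelial miRNA of the miR-200 family, and miR-130c (0.22). In libraries a and b miR-181b stood at 176 and 197 CPM at stage 11.5 and at 1386 and 1576 CPM at stage 26. miR-429 stood at 4279 and 6939 CPM at stage 11.5 and at 61482 and 64210 CPM at stage 26, and miR-130c at 2206 and 4177 CPM, then 29323 and 32260 CPM. Their scaled log2 fold changes were 0.92, 1.54 and 1.35 against 1.22 for miR-449, values that the choice by likeness fixes near each other.

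For miR-34b the nearest row was miR-218 (0.19), a miRNA known from motor neurons, and the next, miR-301 (1.27) and miR-215 (1.36), were already far off. miR-218 had 1 read in library a of stage 11.5 and 0 in library b, against 471 and 486 at stage 26, or 10044 and 11605 CPM, so it too was near 0 before. The likeness of these rows rests on few stage 11.5 reads, since miR-301 and miR-215 were at 0 in both libraries there. The neural marker list, here miR-7 and miR-218, took 0.0529% and 0.0296% of reads at stage 11.5 and 1.13% and 1.28% at stage 26, with 1 of its 2 rows at 0 in library b of stage 11.5. Its rows parted, as miR-7 had a scaled log2 fold change of -0.30 (limma adjusted p = 0.504). Without miR-427 in the totals the list took 0.409% and 0.161%, then 1.22% and 1.37%. Its part in the miR-34b result was not tested. Rows of miR-124, miR-9, miR-128 and miR-219 were not analysed here. For miR-34a the nearest rows were miR-7 (0.15), miR-130a (0.15) and miR-17-5p (0.17). On the same measure miR-449 was 0.71 and miR-34b 3.19 away from miR-34a.

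**Figure D5:**
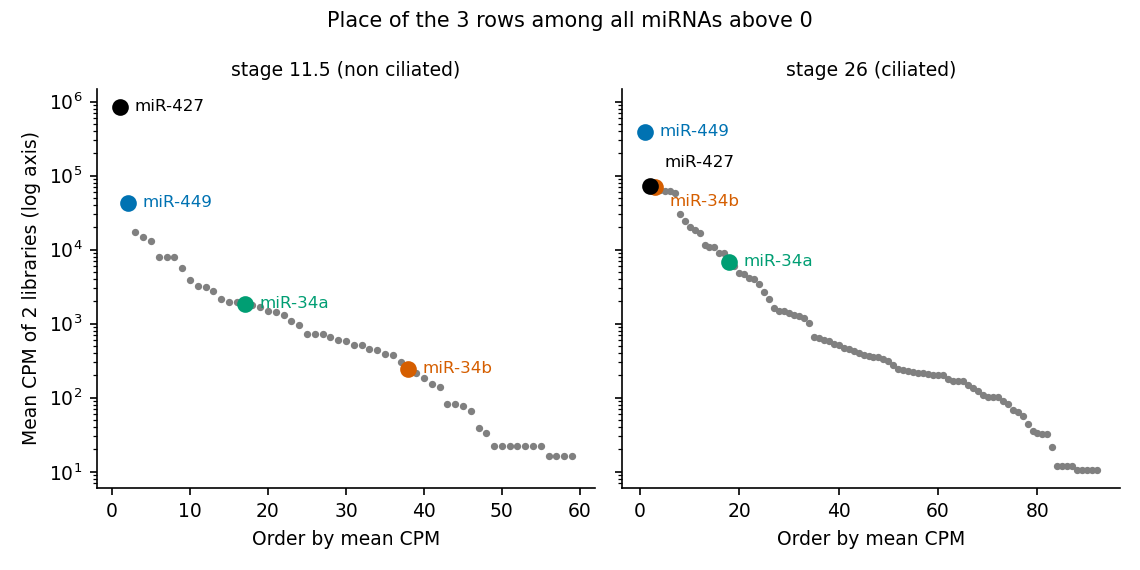
Mean CPM of 2 libraries (log axis) against the order by mean CPM, for the 59 rows above 0 at stage 11.5 (left) and the 92 at stage 26 (right), with the 3 members and miR-427 marked. miR-34b moves from place 38 to place 3, miR-449 from 2 to 1, and miR-34a from 17 to 18.

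Other marker lists bear on which tissue the explants held. The epithelial rows miR-200a, miR-200b and miR-429 took 0.825% and 1.003% of reads at stage 11.5 and 8.68% and 9.39% at stage 26, all above 0 in every library. With miR-427 out of the totals they took 6.37% and 5.47%, then 9.39% and 10.1%. Of the epidermal rows, miR-203, known from skin, took 0.904% and 0.701%, then 6.02% and 6.24%, and miR-205a had 1 read in all. Without miR-427 in the totals these epidermal rows took 6.98% and 3.82%, then 6.52% and 6.71%, so that the stages overlapped. The muscle list (miR-1b and miR-206) took 0.0750% and 0.0691%, then 0.143% and 0.160%. Its rows parted: miR-206 went from 0 reads to 11 and 7, while miR-1b had a scaled log2 fold change of -1.06 (limma adjusted p = 0.0328). Without miR-427 in the totals the direction of the list turned, from 0.579% and 0.377% to 0.155% and 0.172%. The blood and vessel list (miR-126, miR-142-5p and miR-451) took 0.0882% and 0.125%, then 0.0149% and 0.0239%, and without miR-427 0.681% and 0.682%, then 0.0161% and 0.0257%. Most of its reads were of miR-126, with 17 and 36, then 4 and 9. The row of miR-451 had 2 and 2 reads, then 3 and 1, and miR-142-5p had 1 read, in library a of stage 11.5. The endoderm list (miR-192, miR-215 and miR-375) took 0.110% and 0.0329%, then 0.303% and 0.279%, with 2 of 3 rows at 0 in both stage 11.5 libraries. Its rows parted too, with scaled log2 fold changes of 3.90 for miR-215 and -0.66 for miR-375. Without miR-427 the endoderm list took 0.851% and 0.179%, then 0.328% and 0.3003%, and the stages overlapped. The part of these lists in the family's values was not tested.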

How the data were processed

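Small RNA libraries were made with the SREK kit (Ambion), per the labels' protocols. Not given in the sources used here are the sequencer, the aligner, its mismatch limit and the source of the miRNA sequences. The authors deposited CPM, scaled so that the 98 listed miRNAs of a library sum to 1000000. Dividing a column by its smallest value above 0 gave whole numbers throughout (within 1e-06), taken as the reads used for depth, intervals and scaling factors. These totals, 22668 to 46892 reads a library, limit precision, most of all for miR-34b at stage 11.5. p-values measure only the spread between libraries of 1 pool, which the series calls technical replicates.

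Scaling used TMM factors from the tested rows (trimming 30% of M values and 5% of A values from either end). A mean-variance trend was used in limma 3.58.1 under R 4.3.3, fitted to log2(CPM divided by the factor, plus 50), a scale that understates changes of low rows. Adjustment was by Benjamini-Hochberg over all 52 tested rows, those with 15 reads over all libraries and, in 2 or more of them, 276.7 CPM, which is 10 reads at median depth. The threshold was an adjusted p of 0.05. The fit was tested on simulated data without a fall of miR-427 as large as the one seen here, so that test does not cover it. Ratios of pooled reads have exact conditional intervals (scipy version 1.17.1). The members, picked by name, and the marker lists and tests were chosen with earlier results of these data known. Besides members and markers, the text names the rows next to a member in mean CPM, and the 3 rows nearest to it in pattern. Alternatives covered scaling, filter, pseudocount, variance model, rows kept, libraries left out and the replicate letter. The planned edgeR test was not run, because 98 values a column are too few to check the recovery of reads independently.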

Additional observations from a re-analysis of the deposited data

How the results depend on the processing

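miR-449 was higher at stage 26 in all 16 alternatives run (log2 0.62 to 3.20) and past the threshold in 14. miR-34b was higher in all 17 (log2 5.10 to 8.07) and past it in 15. The exceptions for both were the omissions of a stage 26 library: log2 1.24 and 1.18 for miR-449 and 6.25 and 6.16 for miR-34b, without a and b. A stage with 1 library left is assumed to vary like the other. Over all 4 omissions miR-449 ranged from 1.17 to 1.34 and miR-34b from 5.35 to 7.31. miR-34a passed in 1 of 17 alternatives, deposited CPM (log2 1.89), within adjusted p = 0.00748 to 0.994 (limma). Its sign also turned with relative log expression factors (0.18) and a filter on mean CPM of 100 (0.0029), and it ranged from -0.36 to 0.30 over the omissions.

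Calls over the 52 tested rows, 20 higher and 11 lower, became 37 and 6 in deposited CPM. They were 12 and 19 of 51 rows relative to miR-449, and 34 and 14 of 98 rows with no filter, so counts and shares can differ in direction. Omissions gave 8 to 29 higher and 3 to 13 lower. The higher part of all calls was 64.5%, against 86.0% in deposited CPM, 50% with miR-427 out of the totals and 38.7% relative to miR-449. The share of the 3 rows was 28.8% at stage 11.5 and 50.1% at stage 26 with miR-427 out of the totals, and 48.4% at stage 26 without the rows miR-92a, miR-93a, miR-93b and miR-20b. The cause of changes other than those fixed by a denominator was not tested. With the replicate letter as a block (replicate block) miR-449 was at log2 1.22 (limma adjusted p = 1.15e-07), with 19 higher and 10 lower calls. That p rests mostly on variance shared over rows, because the block leaves little replication within a row. Differences between libraries a and b correlated at -0.26 between stages over 52 rows, and the crossed pairing, chosen after seeing the data, gave 22 higher and 14 lower. Letters are not stated to pair libraries.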
